A study of Homo sapiens with 30 samples.

Results

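The 100 genes described here carry the symbols used for protein subunits of the mitochondrial respiratory chain and of ATP synthase. They were taken from 38122 genes by symbol: NDUFA, NDUFB, NDUFC, NDUFS and NDUFV genes with a number, SDHA to SDHD, UQCR genes, COX4 to COX8 genes, ATP5 genes and the protein genes of the mitochondrial genome. Of 214 symbols that matched, 91 pseudogenes and 23 other noncoding genes were left out. The nuclear genome holds 87 of the members, with 36 in complex I, 4 in complex II, 9 in complex III, 18 in complex IV and 20 in complex V. The mitochondrial genome holds the other 13, with 7 in complex I, 1 in complex III, 3 in complex IV and 2 in complex V. NDUFA4 and NDUFA4L2 were counted with complex IV, where the NDUFA4 protein is now placed. ATP5IF1, which encodes an inhibitor of ATP synthase and not a structural subunit, matched by symbol and was counted with complex V.

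Complexes I and II pass electrons from NADH and succinate to ubiquinone, complex III passes them on to cytochrome c, and complex IV hands them to oxygen. Complexes I, III and IV pump protons across the inner mitochondrial membrane as they do so, and complex V, the ATP synthase, makes ATP from their return. Every complex except complex II is built from subunits of both genomes, so both nuclear and mitochondrial transcripts are needed to make it.

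Total RNA was sequenced from SiHa, a cervical squamous carcinoma line, HCT116, a colon carcinoma line, and FaDu, a line from a squamous carcinoma of the hypopharynx. Cells had been kept at pH 6.5 for at least 1 month, or were grown at pH 7.4. The medium was DMEM with penicillin, streptomycin, 10 mM glucose, 2 mM glutamine and 10% serum in every group, with 25 mM each of the buffers HEPES and PIPES, at 37 °C under 5% CO2. Each of the 6 groups held 5 libraries. The labels do not say whether these came from separate cultures, or how many populations were adapted to pH 6.5, so the p-values cover no more than the spread among these libraries, which may be technical.

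Of the 30 libraries, 9 are set apart, which left 21. In the libraries labelled FaDu pH 7.4 replicates 2 to 5, 33 genes specific to HCT116 had a median of 30.6% to 80.4% of the level they have in HCT116. In those labelled HCT116 pH 6.5 replicates 5 to 7, 28 genes specific to SiHa had a median of 37.5% to 104% of the level they have in SiHa. In SiHa pH 7.4 replicates 6 and 7, VIM, the gene of the filament protein vimentin, held 2817 and 2863 normalised counts, while it stayed at or under 165 in the libraries kept. In the kept libraries the median for genes restricted to another line was at most 0.0708%. These genes were chosen for at most 1% of their level in the other lines, judged in FaDu pH 6.5, SiHa pH 6.5 and HCT116 pH 7.4. Low values in those 3 groups therefore follow from the choice. In the kept libraries of the other groups the highest median was 0.0465%, for SiHa genes in HCT116 pH 6.5 replicate 1. The kept groups held 5 libraries at pH 6.5 against 3 at pH 7.4 in SiHa, 2 against 5 in HCT116 and 5 against 1 in FaDu. Libraries of the whole series held 21.02 to 55.7 M reads, and a count of 0 allows up to 1.90 to 5.01 normalised counts, a limit for counting error only. Levels are normalised counts, and a change is the log2 of the level at pH 6.5 divided by that at pH 7.4, on values plus 1, and is given ± SE. A change was called at an adjusted p under 0.05 in limma, with Benjamini-Hochberg adjustment over all genes tested. Of the nuclear members, 40 share more than 5% of their exon bases with another gene, and their counts are less certain.

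The contrasts between lines turn in part on 4 nuclear members. NDUFA3 and COX6B1 were called in opposite directions in SiHa and HCT116, COX5B fell in SiHa, and ATP5MC1 had the largest called rise in HCT116. Their start regions are printed from RefSeq, on the plus strand of GRCh38.p14 with 250 bases before the start and 30 after it. Capitals mark the motif of NRF1, which is GCGCA, any base and GCGC, and CCGGAAG, the motif of ETS factors such as GABP, each read on both strands; both factors are known regulators of respiratory genes. NDUFA3 (chr19:54102605-54102884) holds the NRF1 letters starting 170 and 73 bases before the start. COX6B1 (chr19:35648073-35648352) holds the ETS letters on the other strand, 12 bases before it, and COX5B (chr2:97645812-97646091) holds them 37 and 5 bases before it. ATP5MC1 (chr17:48892537-48892816) shows neither set of letters in this window.
NDUFA3: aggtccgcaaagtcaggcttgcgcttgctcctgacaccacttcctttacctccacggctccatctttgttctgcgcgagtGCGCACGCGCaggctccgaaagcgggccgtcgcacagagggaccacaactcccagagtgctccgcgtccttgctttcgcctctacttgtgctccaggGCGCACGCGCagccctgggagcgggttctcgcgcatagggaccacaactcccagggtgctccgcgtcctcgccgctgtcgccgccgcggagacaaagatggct
COX6B1: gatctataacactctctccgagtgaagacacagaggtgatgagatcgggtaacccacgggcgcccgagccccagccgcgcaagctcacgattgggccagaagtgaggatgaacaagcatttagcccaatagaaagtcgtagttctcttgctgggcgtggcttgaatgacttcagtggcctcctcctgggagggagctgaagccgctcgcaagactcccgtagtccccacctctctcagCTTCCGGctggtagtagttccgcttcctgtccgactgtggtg
COX5B: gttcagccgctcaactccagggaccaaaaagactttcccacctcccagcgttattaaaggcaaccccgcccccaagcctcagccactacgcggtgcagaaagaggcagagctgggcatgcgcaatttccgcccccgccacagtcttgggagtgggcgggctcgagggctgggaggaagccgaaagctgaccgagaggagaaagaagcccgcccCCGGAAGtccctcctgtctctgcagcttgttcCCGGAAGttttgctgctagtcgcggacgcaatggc
ATP5MC1: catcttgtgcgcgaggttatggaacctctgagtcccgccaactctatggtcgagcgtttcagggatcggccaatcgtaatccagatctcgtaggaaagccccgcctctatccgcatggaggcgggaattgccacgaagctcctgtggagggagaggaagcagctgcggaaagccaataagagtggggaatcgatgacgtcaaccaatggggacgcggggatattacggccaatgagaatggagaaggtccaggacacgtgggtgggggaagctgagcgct

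Windows of 300 bases were found for 68 of the 87 nuclear members. The NRF1 letters stood in 17 of these, or 25.0%, against 6.28% of 27305 promoters, and the ETS letters in 20, or 29.4%, against 10.7%. AAGATGGCG, the motif of YY1, stood in 8, or 11.8%, against 1.85%, and TCAAGGTCA, that of the oestrogen-related receptors, in 1, SDHD, against 0.359%. No match of one motif overlapped a match of another in the members' windows. In SiHa, the 20 members with the ETS letters gave 8 calls, all lower at pH 6.5, with a median log2 change of -0.30, and the 47 tested members without them gave 6 higher and 8 lower, with a median of 0.01, beside 15.0% higher and 16.2% lower of all genes. The medians with and without the ETS letters were 0.23 and 0.20 in HCT116 and -0.04 and 0.06 in FaDu. The 8 members with the YY1 letters gave 3 calls in SiHa, all higher, with a median of 0.15, and the 59 without them 3 higher and 16 lower, with a median of -0.10. The YY1 medians with and without were 0.07 and 0.22 in HCT116 and -0.22 and 0.06 in FaDu. Those for the NRF1 letters were -0.04 and -0.06 in SiHa, 0.13 and 0.25 in HCT116, and 0.06 and 0.04 in FaDu. These counts are a description, and the differences between them were not tested.

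In SiHa, more nuclear subunit genes were called lower than higher at pH 6.5. Of 83 nuclear members tested, 7 were higher and 19 lower, or 8.43% and 22.9%, beside 15.0% and 16.2% of 18555 genes tested. Their median log2 change was -0.10, against -0.01 over all genes. The 44 tested nuclear members with at most 5% of exon bases shared gave 5 higher and 8 lower. These were 11.4% and 18.2%, nearer to the shares of all genes. Complex V gave 1 higher and 5 lower of 18, with a median of -0.20, and complex III 1 higher and 2 lower of 9, with a median of -0.23. Complex IV gave 5 lower of 16 with a median of -0.18, and 0 higher by limma, edgeR and DESeq2, with 1 higher at an unadjusted p under 0.05. Complex I was split, with 5 higher and 6 lower of 36 and a median of 0.01. With all libraries as labelled, 13 nuclear members were higher and 28 lower, beside 19.7% and 21.1% of genes. By edgeR 8 were higher and 17 lower, beside 15.7% and 16.0% of genes, and by DESeq2 8 and 23, beside 16.9% and 17.7%.

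**Figure D1:**
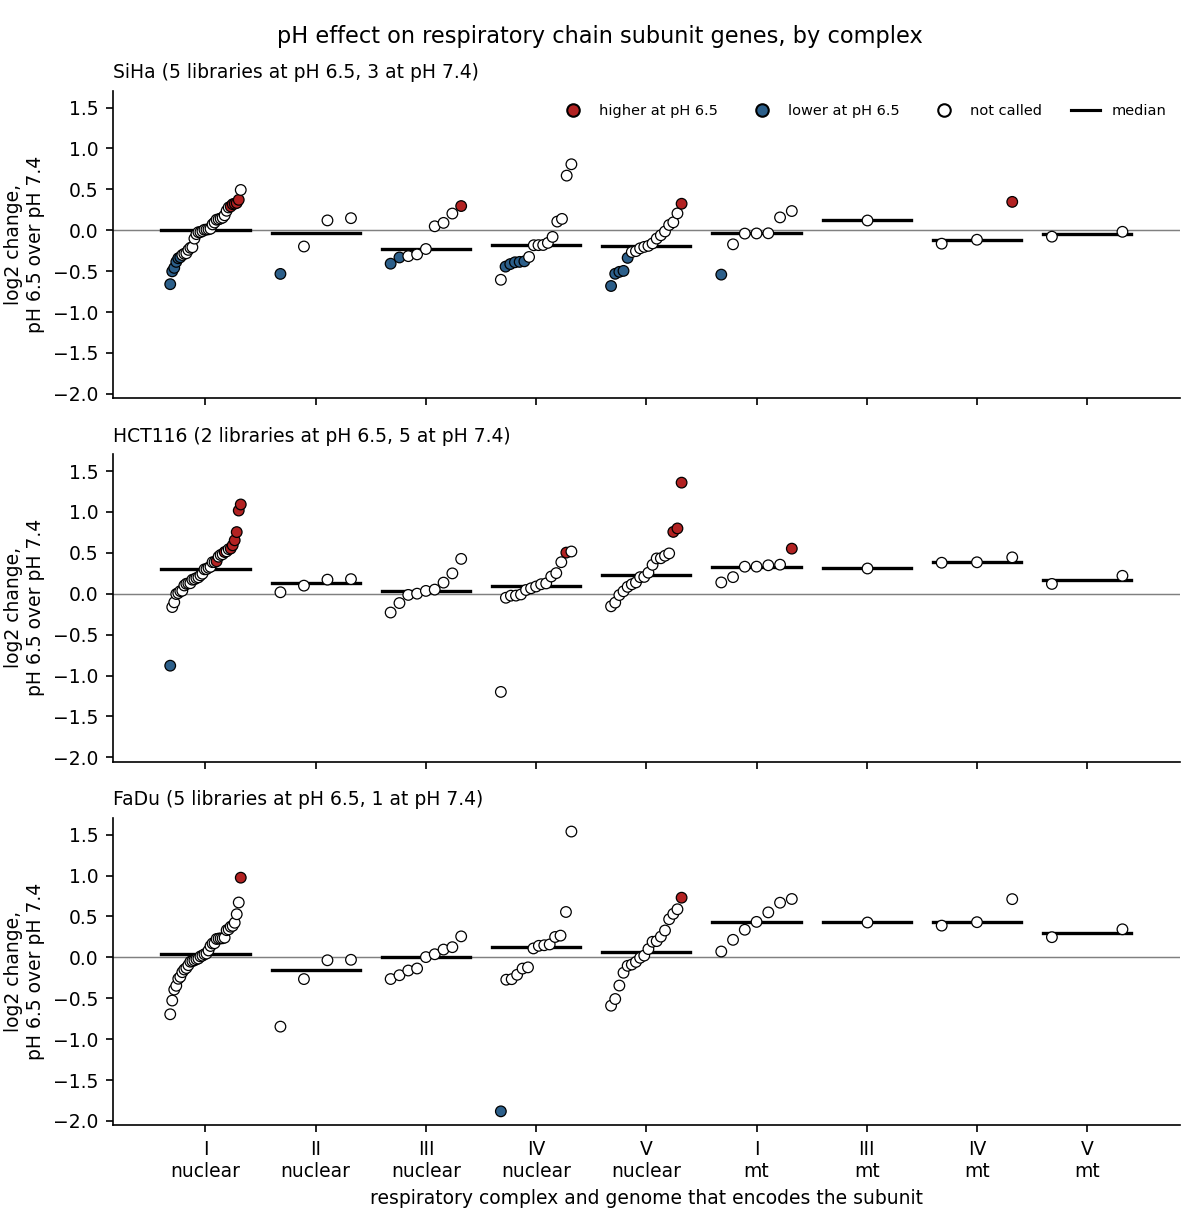
Log2 change of each tested member, pH 6.5 over pH 7.4 (vertical axis), by complex and genome of origin (horizontal axis) in SiHa, HCT116 and FaDu, without the 9 libraries set apart. Each point is 1 gene, red where called higher, blue where called lower and white where not called, and bars are medians: in SiHa the nuclear complexes III, IV and V have medians of -0.23, -0.18 and -0.20, and in HCT116 and FaDu the 13 mitochondrial genes lie above 0.

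ATP synthase held the largest called fall in SiHa. ATP5MC3 (ENSG00000154518), a gene for subunit c of the rotating membrane ring, held 5014, 5494, 5106, 5010 and 3940 normalised counts at pH 6.5, against 7180, 7776 and 8607 at pH 7.4. Every library at pH 6.5 lay under every library at pH 7.4, and the change was -0.68 ± 0.11 (limma adjusted p = 0.00154). ATP5MC2 (ENSG00000135390), another gene for subunit c, held 4420, 4747, 4204, 4123 and 3909 at pH 6.5, against 3344, 3399 and 3495 at pH 7.4. It was higher in every library at pH 6.5, by 0.32 ± 0.08 (limma adjusted p = 0.0146). The other called members of complex V, chosen here after their values were seen, were lower: ATP5MK, a small membrane subunit, fell by 0.53, ATP5MG, subunit g, by 0.51, ATP5F1C, the gamma subunit of the central stalk, by 0.50, and ATP5F1E, the epsilon subunit, by 0.34. The groups of ATP5F1E overlapped, with 10371 as the highest library at pH 6.5 and 10328 as the lowest at pH 7.4. The nuclear genes of complex V summed to 96378 ± 8028 at pH 6.5 and 112070 ± 7638 at pH 7.4 in SiHa (SD, n = 5 and 3).

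In complex IV, COX5B (ENSG00000135940), a zinc-binding subunit on the matrix side, held 3558, 3750, 3240, 3111 and 2992 at pH 6.5, against 4563, 4269 and 4728 at pH 7.4 in SiHa. COX6B1 (ENSG00000126267), a subunit on the intermembrane side, held 5861, 6051, 5021, 4978 and 4494 at pH 6.5, against 6757, 6423 and 7520 at pH 7.4. Neither gene's groups overlapped, and the changes were -0.44 ± 0.09 for COX5B and -0.39 ± 0.11 for COX6B1 (limma adjusted p = 0.00565 and 0.0207). The COX6B1 call was lost without pH 7.4 replicate 1 or without pH 7.4 replicate 5. The remaining called members of the complex were COX5A, a matrix subunit, at -0.41, NDUFA4 at -0.39 and COX6A1, the form of subunit 6A outside heart and skeletal muscle, at -0.38. The calls of NDUFA4 and COX6A1 were lost in 4 and 7 of the 8 fits that left out a library. COX5A was named after its value was seen. COX4I1, the main form of subunit 4, averaged 23101 ± 2383 at pH 6.5 and 20911 ± 1006 at pH 7.4 (SD, n = 5 and 3) and did not pass the test (limma adjusted p = 0.306).

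Of the 4 genes of complex II, the test called 1 in SiHa. SDHD (ENSG00000204370), a membrane anchor subunit, held 1380, 1578, 1437, 1332 and 1158 at pH 6.5, against 1824, 2012 and 2127 at pH 7.4. No library at pH 6.5 reached the lowest at pH 7.4, and the change was -0.53 ± 0.11 (limma adjusted p = 0.00472). SDHA, the flavoprotein that oxidises succinate, averaged 18673 ± 1288 at pH 6.5 and 17183 ± 1395 at pH 7.4. SDHB, the iron-sulphur subunit, averaged 2859 ± 298 at pH 6.5 and 3272 ± 219 at pH 7.4, and SDHC, the other anchor, 5824 ± 361 and 5253 ± 236 (SD, n = 5 and 3). These 3 did not pass the test, with limma adjusted p of 0.338, 0.156 and 0.188.

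Genes of complexes I and III moved both ways in SiHa. NDUFB8 (ENSG00000166136), an accessory subunit of the membrane arm, held 119, 96.5, 120, 115 and 79.4 at pH 6.5, against 171, 155 and 171 at pH 7.4, a change of -0.66 ± 0.18 (limma adjusted p = 0.0177). Its counts are uncertain, because 48.5% of its exon bases are shared with another gene, and its call was lost without pH 7.4 replicate 1 or without replicate 5. NDUFA3 (ENSG00000170906), a small accessory subunit, held 788, 729, 676, 645 and 648 at pH 6.5, against 976, 915 and 980 at pH 7.4, a change of -0.46 ± 0.10 (limma adjusted p = 0.00701). In the other direction, NDUFA6 (ENSG00000184983), a matrix-side accessory subunit, held 3722, 3594, 3208, 3391 and 3447 at pH 6.5, against 2545, 2623 and 2883 at pH 7.4, a change of 0.37 ± 0.08 (limma adjusted p = 0.0077). The groups of these 3 genes did not overlap. The 4 other members of complex I that rose, named after their values were seen, were NDUFS4, NDUFS5, NDUFS6 and NDUFS7, at 0.33, 0.32, 0.32 and 0.29. In complex III, UQCRB (ENSG00000156467), the ubiquinone-binding subunit, held 2581, 2320, 2451, 2303 and 1739 at pH 6.5, against 2863, 2933 and 3211 at pH 7.4, a change of -0.41 ± 0.12 (limma adjusted p = 0.028). UQCR10 (ENSG00000184076), a small accessory subunit, held 3059, 3163, 2799, 2934 and 2792 at pH 6.5, against 2350, 2284 and 2574 at pH 7.4, a change of 0.30 ± 0.08 (limma adjusted p = 0.0212). Neither gene's groups overlapped. The UQCRB call was lost without any one of the 3 libraries at pH 7.4 or without pH 6.5 replicate 6, and that of UQCR10 without pH 7.4 replicate 1 or 4.

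The SiHa counts moved with the 3 libraries at pH 7.4. Without replicate 5 of pH 7.4, 5 nuclear members were higher and 6 lower, beside 9.34% and 9.77% of genes. Without replicate 1 the counts were 3 and 10, beside 10.5% and 10.4%, and without replicate 4 they were 2 and 15, beside 11.5% and 11.7%. ATP5MC3, ATP5MC2, SDHD, COX5B, NDUFA3 and NDUFA6 kept their calls whichever of the 8 libraries was left out, and with all libraries as labelled, where ATP5MC3 stood at -0.74 (limma adjusted p = 0.000136). Markers of squamous epithelium were low in this line, with the sum of 5 markers at 82.8 to 358 at pH 6.5 and 392 to 516 at pH 7.4, and TP63, a defining one, at 0 to 14.8 at pH 6.5 and 43.8 to 58.7 at pH 7.4. The sum of fibroblast markers was 108 to 278 at pH 6.5 and 347 to 537 at pH 7.4. In libraries of whole cultures, fewer cells of a kind and less RNA per cell cannot be told apart, and the part of these markers in the subunit results was not tested.

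**Figure D2:**
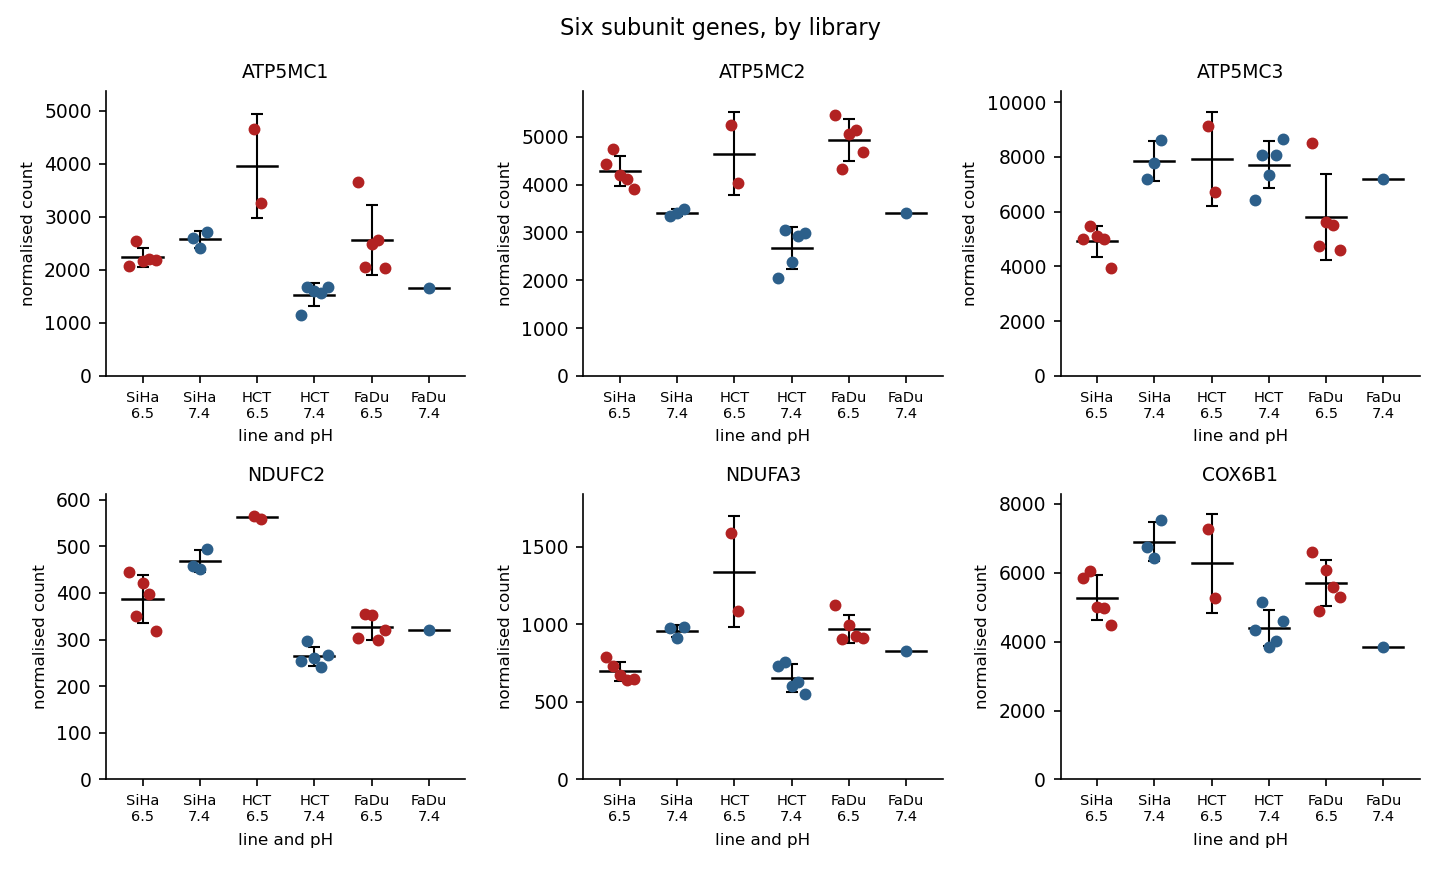
Normalised counts (vertical axes) of ATP5MC1, ATP5MC2, ATP5MC3, NDUFC2, NDUFA3 and COX6B1 in each kept library, by line and pH (horizontal axes, HCT for HCT116); points are libraries, bars are the mean and SD, and FaDu has 1 library at pH 7.4. ATP5MC3 in SiHa lies between 3940 and 5494 at pH 6.5 and between 7180 and 8607 at pH 7.4, and the 2 HCT116 libraries at pH 6.5 lie above all those at pH 7.4 for ATP5MC1, NDUFC2 and NDUFA3.

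In HCT116, most of the nuclear subunit genes called were higher at pH 6.5. Of 82 nuclear members tested, 12 were higher, or 14.6%, and 1 lower, beside 9.11% and 11.1% of 18885 genes tested, and the median log2 change was 0.19, against -0.01 over all genes. Complex I gave 8 higher and 1 lower of 36, with a median of 0.30, complex V gave 3 higher of 18, with a median of 0.23, and complex IV gave 1 higher of 15, with a median of 0.09. Complex III had a median of 0.04 over 9 genes, with 0 calls by limma, 1 at an unadjusted p under 0.05, and 1 higher by each of edgeR and DESeq2. Complex II had a median of 0.14 over 4 genes, with 0 calls by limma, edgeR and DESeq2 and 0 at an unadjusted p under 0.05. The 44 tested nuclear members with at most 5% of exon bases shared gave 9 higher and 0 lower, or 20.5% and 0%. The nuclear members took 0.904% and 0.766% of reads at pH 6.5, against 0.659% to 0.757% at pH 7.4. In normalised counts their sums overlapped, at 353905 and 266759 at pH 6.5, against 251281 to 289559 at pH 7.4.

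ATP5MC1 (ENSG00000159199), the gene for subunit c with the largest change, held 4647 and 3262 normalised counts at pH 6.5 in HCT116, against 1148, 1683, 1601, 1556 and 1673 at pH 7.4. The groups were far apart, and the change was 1.36 ± 0.18 (limma adjusted p = 0.000311). ATP5MC2 held 5254 and 4026 at pH 6.5, against 2041, 3041, 2379, 2931 and 2984 at pH 7.4, a rise of 0.80 ± 0.18 (limma adjusted p = 0.00791), and this call was lost without pH 6.5 replicate 1. The other called member of complex V, named after its value was seen, was ATP5IF1, the inhibitor that blocks reverse action of the enzyme, with 5098 and 4055 at pH 6.5 and 2684, 2952, 2617, 2422 and 2809 at pH 7.4, a rise of 0.76 ± 0.13 (limma adjusted p = 0.00202). None of these 3 genes' groups overlapped. ATP5MC3, which fell in SiHa, held 9141 and 6713 at pH 6.5, against 6428, 8054, 7340, 8068 and 8660 at pH 7.4 (limma adjusted p = 0.914), and its groups overlapped.

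In complex I of HCT116, NDUFC2 (ENSG00000151366), a membrane-arm accessory subunit, held 565 and 559 at pH 6.5, against 253, 296, 261, 242 and 267 at pH 7.4. The 2 libraries at pH 6.5 were alike and well above the others, and the change was 1.09 ± 0.16 (limma adjusted p = 0.000544). A share of 18.1% of the exon bases of NDUFC2 belongs to another gene as well. NDUFA3 held 1592 and 1088 at pH 6.5, against 733, 759, 600, 626 and 553 at pH 7.4, a change of 1.02 ± 0.18 (limma adjusted p = 0.00238). NDUFB1 (ENSG00000183648), another membrane-arm subunit, held 1250 and 1141 at pH 6.5, against 625, 728, 690, 694 and 815 at pH 7.4, a change of 0.75 ± 0.14 (limma adjusted p = 0.00337). NDUFS8 (ENSG00000110717), a core subunit with iron-sulphur clusters, held 3714 and 2571 at pH 6.5, against 2095, 2203, 2104, 1953 and 1904 at pH 7.4, a change of 0.59 ± 0.15 (limma adjusted p = 0.0155) that was lost without pH 6.5 replicate 1. None of these 4 overlapped between pH groups. Among the others called higher were NDUFB10, NDUFB5 and NDUFV3, at 0.65, 0.51 and 0.40, and the single one called lower was NDUFA13, at -0.88; these were named after their values were seen. NDUFA13 is uncertain, with a mean of 46.6 over all 30 libraries and 20.97% of its exon bases shared with another gene. In complex IV, COX6B1 held 7281 and 5263 at pH 6.5, against 4330, 5161, 3838, 4017 and 4607 at pH 7.4, a rise of 0.50 ± 0.16 (limma adjusted p = 0.0398) that was lost when pH 6.5 replicate 1 or pH 7.4 replicate 5, 6 or 7 was left out.

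The HCT116 counts rest on 2 libraries at pH 6.5, and these differed from each other. Replicate 1 was the higher of the pair in 76 of the 81 nuclear members with a mean over 10. Without it, 5 nuclear members were called, all higher, with a median of 0.00, beside 4.45% and 7.06% of genes, and without replicate 3, 26 were higher and 1 lower, with a median of 0.41, beside 7.42% and 9.27%. The calls of ATP5MC1, NDUFC2, NDUFA3 and NDUFB1 held whichever of the 7 libraries was left out. By edgeR 20 nuclear members were called, all higher, beside 11.0% and 9.79% of genes, and by DESeq2 22 and 1, beside 11.5% and 11.3%. With all libraries as labelled the counts were 9 and 2, beside 8.56% and 9.62%. ATP5MC1, ATP5MC2, NDUFB1 and ATP5IF1 were then still called higher, at 0.89, 0.69, 1.09 and 0.76 (limma adjusted p = 0.0252, 0.0124, 0.00689 and 0.00263). NDUFC2, NDUFA3 and COX6B1 were not, at 0.59, 0.48 and 0.21 (limma adjusted p = 0.0785, 0.168 and 0.322). Markers moved with pH in this line: KRT5, KRT14 and KRT6A, 3 of the 5 squamous markers, were higher at pH 6.5, where the sum of the list was 1954 to 2211, against 51.6 to 131 at pH 7.4. TP63 stood at 2.29 to 3.42 at pH 6.5 and at 1.23 to 7.41 at pH 7.4, and the genes restricted to FaDu at 0% at pH 6.5. The 5 colon markers summed to 846 to 1058 at pH 6.5, against 1325 to 1730 at pH 7.4. Of these CDX2 held 821 to 1030 at pH 6.5, against 700 to 918 at pH 7.4, and HNF4A 7.98 to 14.9, against 566 to 713. The part of these changes in the subunit results was not tested.

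In FaDu the comparison had a single library at pH 7.4, and few nuclear members were called. Every FaDu SE and p rests on the spread among the libraries at pH 6.5 and assumes that pH 7.4 varies alike, so these calls have no replicate check at pH 7.4. Of 81 tested, 2 were higher and 1 lower, or 2.47% and 1.23%, beside 4.24% and 3.12% of 19170 genes tested, and the median log2 change was 0.02. NDUFV1 (ENSG00000167792), the core subunit that binds NADH, held 23171, 20008, 22770, 22929 and 20274 at pH 6.5, against 11094 at pH 7.4, a change of 0.97 ± 0.14 (limma adjusted p = 0.0167). ATP5PB (ENSG00000116459), subunit b of the peripheral stalk, held 15232, 13704, 15078, 13640 and 13852 at pH 6.5, against 8618 at pH 7.4, a change of 0.73 ± 0.12 (limma adjusted p = 0.0226). All 5 libraries at pH 6.5 were above the one at pH 7.4 for both genes. NDUFA4L2 (ENSG00000185633), a relative of NDUFA4 known as a hypoxia-inducible gene, held 35.4, 32.6, 24.5, 32.4 and 27.6 at pH 6.5, against 114 at pH 7.4, a change of -1.88 ± 0.31 (limma adjusted p = 0.0218). SDHD held 2577, 1481, 1633, 1605 and 1429 at pH 6.5 and 3064 at pH 7.4, a value of -0.85 that did not pass the test (limma adjusted p = 0.119).

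Among the FaDu libraries at pH 6.5, replicate 1 was the highest of 5 libraries in 73 of 81 nuclear members and the lowest in 11 of 13 mitochondrial members. It was nearer than the other 4 to the library at pH 7.4, which is also numbered 1, in VIM, in the sum of endothelial markers and in the share of reads in mitochondrial protein genes. VIM stood at 44.8 in it and at 2.08 to 4.42 in the other 4, against 36.2 at pH 7.4, and the sum of endothelial markers at 391 in it and at 1157 to 2396 in the other 4, against 270 at pH 7.4. The FaDu contrasts rest on that library at pH 7.4, and the part of this likeness in them was not tested. When replicate 1 of pH 6.5 was left out, the median log2 change was -0.05 over nuclear members and 0.48 over mitochondrial members. Over all genes it was then -0.01. The calls of NDUFA4L2 and ATP5PB were lost in 4 of the 5 fits that left out a library at pH 6.5, and that of NDUFV1 in 2. By edgeR 2 nuclear members were higher and 1 lower, beside 3.12% and 4.01% of genes, and by DESeq2 4 and 1, beside 7.11% and 6.76%. With all libraries as labelled, 23 nuclear members were higher and 5 lower, beside 24.0% and 22.3% of genes; NDUFV1 and ATP5PB were then at 1.71 and 0.97, and NDUFA4L2 was at -0.06 (limma adjusted p = 0.916). The sum of squamous markers in FaDu was 251011 to 401444 at pH 6.5 and 448856 at pH 7.4, and that of endothelial markers, mostly CDH5, 391 to 2396 at pH 6.5 and 270 at pH 7.4. Their part in the subunit results was not tested.

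The 3 genes for subunit c of ATP synthase encode the same mature protein behind different import sequences, so their summed level and their shares can be read together; this reading was chosen after the values were seen. In SiHa their sum was 11511, 12783, 11480, 11332 and 10041 at pH 6.5, against 13117, 13581 and 14817 at pH 7.4, without overlap. In HCT116 it was 19042 and 14001 at pH 6.5, against 9617, 12777, 11320, 12555 and 13316 at pH 7.4, again without overlap but in the other direction. In FaDu it was 17621, 11131, 13142, 13210 and 11306 at pH 6.5, on both sides of 12239 at pH 7.4. The make-up of the sum moved the same way in each line. ATP5MC3 gave 43.6%, 43.0%, 44.5%, 44.2% and 39.2% of these reads at pH 6.5 in SiHa, against 54.7%, 57.2% and 58.1% at pH 7.4. Its share was 48.0% and 47.9% at pH 6.5 in HCT116, against 66.8%, 63.0%, 64.8%, 64.3% and 65.0% at pH 7.4. In FaDu it was 48.3%, 42.7%, 42.7%, 41.7% and 40.8% at pH 6.5, against 58.7% at pH 7.4. No line had an overlap, and both HCT116 libraries at pH 6.5, which differed in level, gave nearly the same share. The share of ATP5MC2 was 36.4% to 38.9% at pH 6.5 and 23.6% to 25.5% at pH 7.4 in SiHa, 27.6% and 28.8% against 21.02% to 23.8% in HCT116, and 31.0% to 41.3% against 27.8% in FaDu. That of ATP5MC1 was 23.3% and 24.4% at pH 6.5 in HCT116, against 11.9% to 14.1% at pH 7.4, and 17.9% to 20.8% against 13.6% in FaDu, but overlapped in SiHa, at 18.0% to 21.8% and 17.7% to 19.8%. A share within a library does not depend on its scaling, and reads per gene are not corrected for length.

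No member was called in the same direction in all 3 lines by limma or edgeR. At an unadjusted p under 0.05 limma gave 1, ATP5MC2, and edgeR 2, ATP5MC2 and MT-ND6, all of them higher; DESeq2 called 1, ATP5MC2. ATP5MC2 held 5455, 4320, 5049, 5139 and 4673 at pH 6.5 in FaDu, against 3399 at pH 7.4 (limma adjusted p = 0.0681), so that every library at pH 6.5 was above every library at pH 7.4 in each of the 3 lines.

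The pH effect was then set against itself between HCT116 and SiHa in 1 fit over the 21 libraries. Without the libraries set apart it differed in 27 of 96 members, all with the HCT116 effect above the SiHa effect, beside 24.5% of 22127 genes in either direction, 12.6% with HCT116 above and 11.9% with SiHa above. The median difference over members was 0.32, against 0.02 over all genes. Complex V gave 9 of its 18 nuclear members and a median of 0.53, complex I 13 of 36 and 0.27, and complex IV 4 of 16 and 0.28. In complexes II and III, 0 of 13 nuclear members were called by this limma contrast, with 2 at an unadjusted p under 0.05. The contrast was also fitted in edgeR and DESeq2, and those counts are not given here. Among the 3 lines together, limma's F-test called 28 of 96 members, beside 33.1% of genes.

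NDUFA3 had the smallest p of the contrast, with HCT116 above SiHa by 1.48 ± 0.19 (limma adjusted p = 1.51e-05). NDUFC2 differed by 1.37 ± 0.18 (limma adjusted p = 1.77e-05), with 445, 351, 422, 398 and 319 at pH 6.5 and 457, 451 and 495 at pH 7.4 in SiHa, where it did not pass its own test (adjusted p = 0.126). ATP5MC1 differed by 1.56 ± 0.25 (limma adjusted p = 0.000119), with 2077, 2541, 2170, 2200 and 2192 at pH 6.5 and 2593, 2407 and 2715 at pH 7.4 in SiHa (adjusted p = 0.109). NDUFS8, NDUFB1 and COX6B1 differed by 0.83, 0.78 and 0.89 (limma adjusted p = 0.00122, 0.00183 and 0.00201). When each of the 21 libraries was left out in turn, 8 members were called every time: these 6, COX5B and ATP5IF1. The count fell to 8, beside 16.5% of genes, without HCT116 pH 6.5 replicate 1, to 16, beside 20.3%, without SiHa pH 7.4 replicate 5, and was 35, beside 21.4%, without HCT116 pH 6.5 replicate 3. It was 17 with all libraries as labelled, with HCT116 above SiHa in 15, beside 11.3% of genes, and SiHa above HCT116 in 2, NDUFS4 at -0.69 and COX7A2 at -0.53, beside 9.45% (limma adjusted p = 0.0268 and 0.0457). Of the 8 members, COX5B and NDUFS8 then lost their calls, at 0.26 and 0.46 (limma adjusted p = 0.418 and 0.114). NDUFS4 and COX7A2 were named after their values were seen. A replicate block in the fit left far fewer members called, with the counts given under the dependence on processing.

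**Figure D3:**
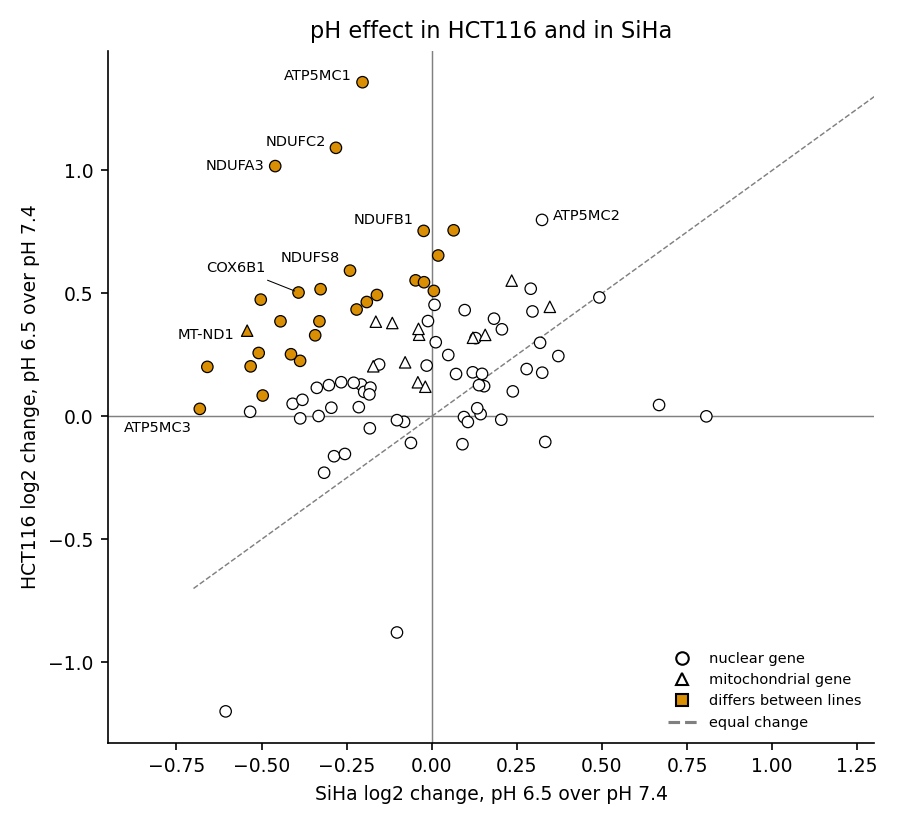
Log2 change at pH 6.5 over pH 7.4 in HCT116 (vertical axis) against SiHa (horizontal axis) for the 96 members of the line contrast. Circles are nuclear and triangles mitochondrial genes, orange where the effects differ at an adjusted p under 0.05. All 27 orange points lie above the dashed line of equal change, with ATP5MC1, NDUFC2 and NDUFA3 farthest up.

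The 13 protein genes of the mitochondrial genome are transcribed as long polycistronic RNAs by a dedicated polymerase, apart from the nuclear genes. Per kilobase of exon their median level was 52771 at pH 6.5 and 51192 at pH 7.4 in SiHa, 243465 and 196778 in HCT116, and 106593 and 101456 in FaDu. The nuclear members had medians of 998 at pH 6.5 and 991 at pH 7.4 in SiHa, 933 and 738 in HCT116, and 913 and 853 in FaDu. The mitochondrial level per length was lowest in SiHa and highest in HCT116 at both pH values, while the nuclear medians of the lines were close. The 13 genes took 2.31% to 2.94% of reads at pH 6.5 in SiHa, against 2.41% to 2.81% at pH 7.4. In HCT116 they took 7.75% and 7.83% at pH 6.5, against 5.40% to 6.45% at pH 7.4, and in FaDu 4.07% to 5.80%, against 3.71%. The SiHa ranges overlapped and those of HCT116 and FaDu did not, though FaDu pH 6.5 replicate 1, at 4.07%, stood apart from the other 4 at 5.36% or more. The ratio of mitochondrial to nuclear subunit reads overlapped between pH groups in every line, with 2.46 to 3.22 against 2.45 to 3.11 in SiHa, 8.57 and 10.2 against 7.70 to 9.79 in HCT116, and 4.18 to 7.38 against 4.88 in FaDu.

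**Figure D4:**
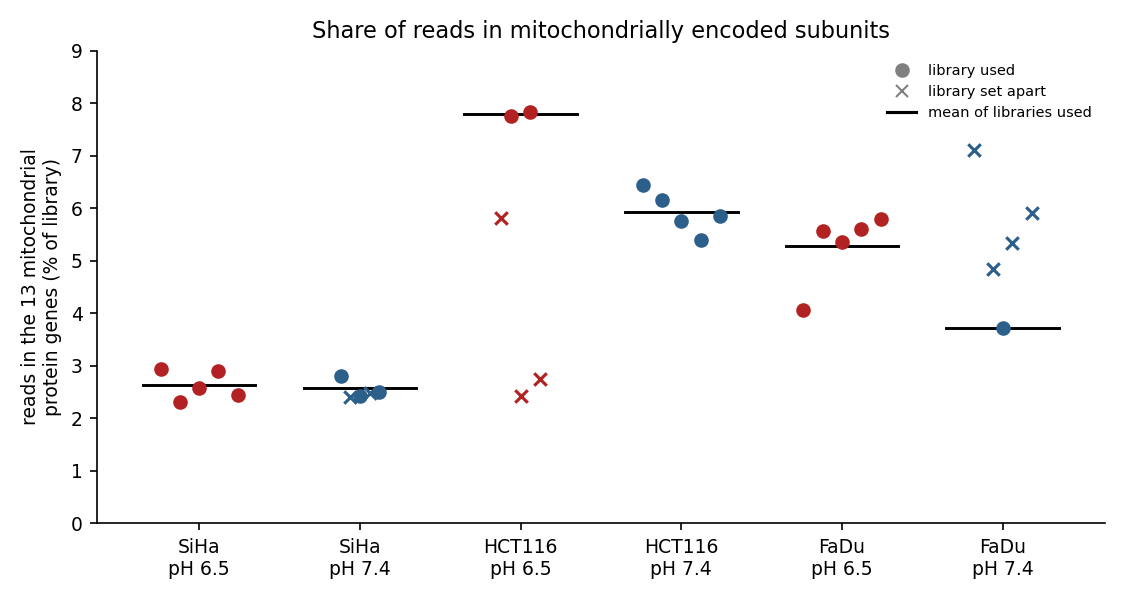
Share of reads in the 13 mitochondrial protein genes (vertical axis, % of library) by line and pH (horizontal axis), with dots for kept libraries, crosses for libraries set apart and bars for the mean of kept libraries. Both kept HCT116 libraries at pH 6.5, at 7.75% and 7.83%, lie above the 5 at pH 7.4, and the SiHa groups overlap.

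Of the 13 mitochondrial genes, limma called 2 in SiHa and 1 in HCT116. In SiHa 1 was higher and 1 lower, or 7.69% each, beside 15.0% and 16.2% of all genes, with a median of -0.04. MT-CO1 (ENSG00000198804), the catalytic core of complex IV, held 302388, 266051, 291370, 310002 and 283931 at pH 6.5, against 257638, 222385 and 207653 at pH 7.4, a change of 0.35 ± 0.12 (limma adjusted p = 0.0461). MT-ND1 (ENSG00000198888), a complex I subunit at the ubiquinone site, held 78593, 46134, 50280, 58918 and 44154 at pH 6.5, against 95982, 64712 and 79844 at pH 7.4, a change of -0.54 ± 0.19 (limma adjusted p = 0.04997). The MT-ND1 groups overlapped, and each of these calls was lost in 6 of the 8 fits that left out a library. In HCT116 the test called 1 higher, or 7.69%, beside 9.11% of all genes: MT-ND6 (ENSG00000198695), the complex I subunit read from the other strand of the mitochondrial genome. It held 50626 and 48655 at pH 6.5, against 31363, 33084, 37413, 32670 and 35064 at pH 7.4, a change of 0.55 ± 0.12 (limma adjusted p = 0.0067), and its call held whichever of the 7 libraries was left out. It stood at -0.08 (limma adjusted p = 0.862) with all libraries as labelled.

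The log2 changes of all 13 mitochondrial genes were above 0 in HCT116 and in FaDu, with medians of 0.33 and 0.43, but few passed the test. In HCT116 edgeR called 7 of them higher and DESeq2 6, and limma called 7 when values were scaled to reads of nuclear genes, a scaling that put the median of all genes at 0.07. In FaDu limma and edgeR called 0, with 4 and 5 at an unadjusted p under 0.05, and DESeq2 called 4. With all libraries as labelled all 13 genes were below 0 in HCT116, with a median of -0.56, and 11 of 13 were in FaDu, with a median of -0.22. Limma then called 0 in both lines, with 0 at an unadjusted p under 0.05 in HCT116 and 1 in FaDu, and edgeR and DESeq2 were not run on these libraries. In the libraries set apart, the share of reads in these genes was 2.43% to 5.81% in the libraries labelled HCT116 pH 6.5 and 4.84% to 7.11% in those labelled FaDu pH 7.4. MT-ND1 was the mitochondrial member whose effect differed between HCT116 and SiHa, by 0.89 ± 0.27 (limma adjusted p = 0.0215). This call was lost without HCT116 pH 6.5 replicate 1 or without SiHa pH 7.4 replicate 1, and the difference was 0.0078 with all libraries as labelled (limma adjusted p = 0.993). Of the 2 ribosomal RNA genes of the mitochondrial genome, MT-RNR1, for the 12S RNA, was lower in HCT116, at 76427 ± 12817 at pH 6.5 and 123470 ± 23178 at pH 7.4 (SD, n = 2 and 5), with a log2 change of -0.68 ± 0.19 (limma adjusted p = 0.0267). MT-RNR2, for the 16S RNA, averaged 387931 ± 16965 at pH 6.5 and 393554 ± 61873 at pH 7.4 there (limma adjusted p = 0.988), and the share of reads in both genes together overlapped, at 1.24% to 1.27% at pH 6.5 and 0.983% to 1.53% at pH 7.4. Neither ribosomal RNA gene was called in SiHa or FaDu by limma, where 1 and 2 had an unadjusted p under 0.05; edgeR called 0 in both, and DESeq2 0 in SiHa and 2 in FaDu.

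**Figure D5:**
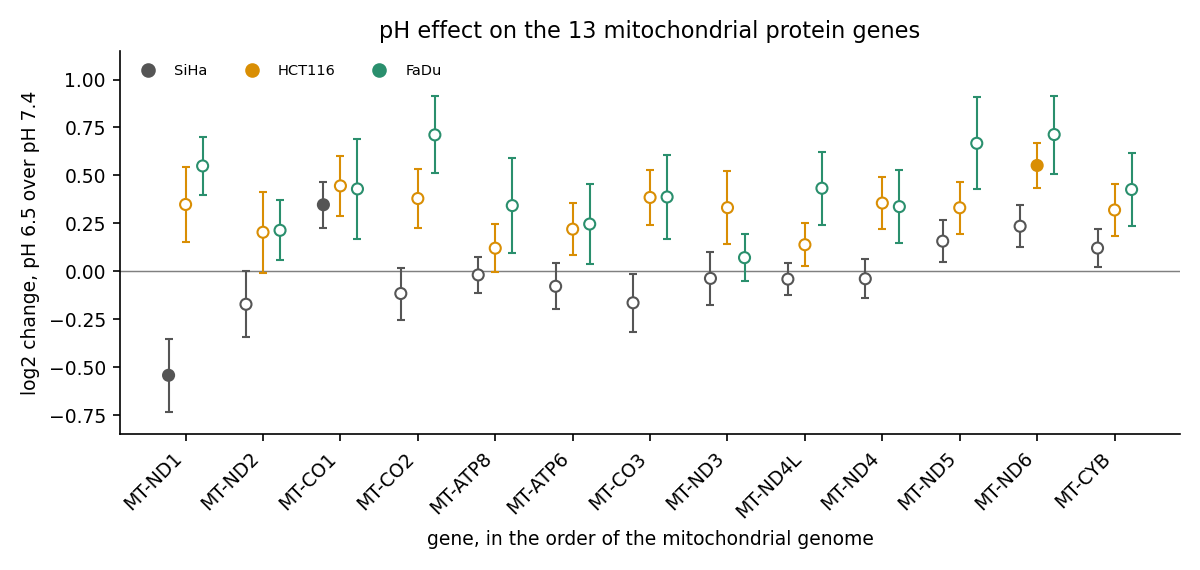
Log2 change at pH 6.5 over pH 7.4 (vertical axis) of the 13 mitochondrial protein genes in genome order (horizontal axis) in SiHa, HCT116 and FaDu; bars are the SE and filled points were called. Values in HCT116 and FaDu lie above 0 for all 13 genes, and MT-ND1 in SiHa is the lowest at -0.54.

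Most alternative isoforms of complex IV subunits stood near the floor in these lines. COX4I2, the hypoxia form of subunit 4, was at 0 in FaDu and at most 5.30 elsewhere, and COX8C, a testis form, was at most 5.73. COX6A2, the muscle form of subunit 6A, was at 0 in every kept library of HCT116 and FaDu, and at 18.1 to 34.2 at pH 6.5 and 9.17 to 19.9 at pH 7.4 in SiHa (limma adjusted p = 0.0727). COX7A1, another muscle form, lay between 1.10 and 14.2 over the 3 lines. COX6B2, a testis form, averaged 28.3 ± 7.91 at pH 6.5 in FaDu (SD, n = 5), against 8.79 in the library at pH 7.4 (limma adjusted p = 0.0769), and 60.0 ± 4.18 and 62.1 ± 13.9 in HCT116 (SD, n = 2 and 5). UQCRHL, a close copy of the complex III hinge gene UQCRH, could share its reads and did not pass the test in any line. ATP5MF-PTCD1 and ATP5MGL had means under 10 and were not tested.

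Other genes of the pathway were followed in fixed lists. Their counts of genes called higher and lower are to be read beside 15.0% and 16.2% of all genes tested in SiHa, 9.11% and 11.1% in HCT116, and 4.24% and 3.12% in FaDu. Assembly factors of complex I, 20 genes, gave 7 higher and 2 lower in SiHa, or 35% and 10%, 4 and 1 in HCT116, or 20% and 5%, and 2 in FaDu, both higher, with medians of 0.08, 0.10 and 0.02. NDUFAF3, an assembly factor of the membrane arm, averaged 1193 ± 94.9 at pH 6.5 and 888 ± 130 at pH 7.4 in SiHa, and 1563 ± 291 against 584 ± 123 in HCT116, with changes of 0.43 ± 0.12 and 1.43 ± 0.20 (limma adjusted p = 0.0167 and 0.000429). ECSIT, which helps build the same arm, was lower in HCT116, at 848 ± 236 and 2035 ± 200.5, a change of -1.28 ± 0.17 (limma adjusted p = 0.000273). Assembly factors of complex IV, 25 genes, gave 2 higher and 6 lower in SiHa, or 8% and 24%, 2 and 1 in HCT116, or 8% and 4%, and 0 in FaDu by limma, edgeR and DESeq2, where 3 and 2 passed an unadjusted p under 0.05. Among them LRPPRC, which stabilises mitochondrial mRNA, fell by 0.50 ± 0.09 in SiHa, to 6564 ± 316 at pH 6.5 against 9311 ± 814 at pH 7.4 (limma adjusted p = 0.00176). Those of complexes II and III, 10 genes, gave 1 higher and 1 lower in SiHa, 2 in HCT116, both higher, and 0 in FaDu by limma, edgeR and DESeq2, with 1 at an unadjusted p under 0.05 in limma. The 5 of complex V gave 1 higher in HCT116, FMC1 at 0.99. In SiHa and FaDu limma and edgeR called 0 of them and DESeq2 1 in each, with 2 in each line at an unadjusted p under 0.05 in limma.

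The list of mitochondrial transcription factors and their regulators, 26 genes, gave 4 higher and 8 lower in SiHa, or 15.4% and 30.8%, beside 15.0% and 16.2% of all genes, with a median of -0.17, and 1 higher in each of HCT116 and FaDu, where 25 were tested. PPARGC1A, another gene of this list, averaged 95.8 ± 42.0 at pH 6.5 and 556 ± 99.1 at pH 7.4 in SiHa. Its change was -2.64 ± 0.35 (limma adjusted p = 0.000453). ESRRA, an oestrogen-related receptor, averaged 667 ± 71.2 at pH 6.5 and 1410 ± 106 at pH 7.4 in SiHa and fell by 1.08 ± 0.11 (limma adjusted p = 0.000123). GABPA, the DNA-binding subunit of GABP, averaged 2837 ± 339 at pH 6.5 and 1684 ± 320 at pH 7.4 and rose by 0.76 ± 0.14 (limma adjusted p = 0.00253). Electron carriers and linked enzymes, 22 genes, gave 4 higher and 2 lower in each of SiHa and HCT116, or 18.2% and 9.09%, beside 15.0% and 16.2% of all genes in SiHa and 9.11% and 11.1% in HCT116, and 1 higher in FaDu. COQ5 and COQ7, which make ubiquinone, rose by 0.67 and 0.58 in SiHa (limma adjusted p = 0.000524 and 0.00142), and UCP2, an uncoupling protein homologue, changed by -0.57 in SiHa and 1.06 in HCT116 (limma adjusted p = 0.0022 and 0.0368). The tricarboxylic acid cycle list, 19 genes, gave 2 higher and 4 lower in SiHa, or 10.5% and 21.1%, 1 and 2 in HCT116, or 5.26% and 10.5%, and 2 in FaDu, both higher. IDH2, the mitochondrial NADP-dependent isocitrate dehydrogenase, averaged 6406 ± 877 at pH 6.5 and 2442 ± 304 at pH 7.4 in SiHa, a change of 1.39 ± 0.13 (limma adjusted p = 5.72e-05). In FaDu it was 8005 ± 1206 at pH 6.5 (SD, n = 5) against 924 in the library at pH 7.4, a log2 change of 3.10 with no replicate at pH 7.4.

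The mitochondrial ribosome list, 76 genes with 75 tested, gave 14 higher and 10 lower in SiHa, or 18.7% and 13.3%, beside 15.0% and 16.2% of all genes. It gave 5 and 1 in HCT116, or 6.67% and 1.33%, beside 9.11% and 11.1%, and 4 and 1 in FaDu, or 5.33% and 1.33%, beside 4.24% and 3.12%. The medians were 0.05, 0.14 and -0.10 in SiHa, HCT116 and FaDu. MRPS6, a small-subunit protein, was lower in each line, at 4817 ± 816 against 7770 ± 2347 in SiHa, 1008 ± 52.5 against 3641 ± 1085 in HCT116, and 2435 ± 340 against 6131 in FaDu, each as pH 6.5 against pH 7.4, with changes of -0.66, -1.81 and -1.34 (limma adjusted p = 0.0179, 0.000157 and 0.0169). The list of stress genes known to follow impaired respiration, 12 genes with 11 tested in SiHa and HCT116, gave 4 higher and 3 lower in SiHa, or 36.4% and 27.3%, 2 and 1 in HCT116, or 18.2% and 9.09%, and 4 in FaDu, all lower, or 33.3%. DDIT3, a stress transcription factor, averaged 385 ± 112 at pH 6.5 and 172 ± 44.6 at pH 7.4 in SiHa, and 470 ± 369 and 153 ± 36.3 in HCT116, with changes of 1.13 and 1.37 (limma adjusted p = 0.00614 and 0.027). In FaDu it was 222 ± 49.3 at pH 6.5 (SD, n = 5) against 1405 in the library at pH 7.4, a log2 change of -2.69 with no replicate at pH 7.4.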

How the data were processed

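RNA-seq values came as 1 table of the whole series. Per the submitters' processing notes, reads were handled with STAR 2.6.1d, Trimmomatic 0.38, FastQC and bcl2fastq 2.20, on GRCh37, and with DESeq2 1.22.2. The sources used here do not give the counting program, strand setting or annotation. The deposited values, taken as a signal, are normalised counts: the authors divided reads by a size factor, and 100.0% of values were whole reads within 0.01 of a step once that factor was recovered. Libraries held 21.02 to 55.7 M reads. Symbols, exon lengths and exon sharing came from GENCODE on GRCh38, which matched 35466 genes, so no coordinates of the files' build are printed; promoters came from RefSeq.

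In each line limma 3.58.1 (R 4.3.3, mean-variance trend) tested log2 of the value plus 1 for genes whose higher group averaged 10 or more, with 2-sided p-values adjusted by Benjamini-Hochberg and a threshold of 0.05. Differences between lines were interaction contrasts in 1 fit over 21 libraries. A library was set apart where genes restricted to another line (at least 10 counts per M reads there and at most 1% elsewhere) reached 5% of their level; SiHa pH 7.4 replicates 6 and 7 were set apart for their high VIM. In FaDu, with 1 library at pH 7.4, the spread comes from pH 6.5. Alternatives were edgeR 4.0.16 and DESeq2 1.42.0 on the recovered reads, other pseudocounts, filters and scalings, all libraries as labelled, a replicate block, and each library left out. Scripts, tested on simulated data, used pandas 2.3.3, numpy 2.4.6, matplotlib 3.10.9 and scipy 1.17.1 in Python 3.11.15.

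Members named by rule were the mitochondrial and complex II genes, alternative isoforms and their partners, the largest called rise and fall per line and complex at a mean of at least 100, and the 6 smallest p of the HCT116 minus SiHa contrast; up to 3 called genes per list and line came from the other lists. The members, lists and rules were chosen with earlier results of these data known.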

Additional observations from a re-analysis of the deposited data

Results flagged for a closer look

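Single libraries stood far from the rest of their group in 12 of 128 groups of 4 to 5 libraries tested, where chance gives about 1 in 20. In FaDu at pH 6.5 replicate 1 did so in 6 of them, with 224372 normalised counts of MT-CO2, 11019 of SDHA, 2577 of SDHD, 8509 of ATP5MC3 and 3485 of COX5B, and with 4.07% of its reads in the 13 mitochondrial protein genes. In HCT116 at pH 7.4 replicate 1 stood apart for MT-ND1, with 171383 normalised counts, and for ATP5MC1, with 1148. Replicate 6 of that group did so for MT-ATP6, with 154304, and replicate 3 for COX7A1, with 6.97. In SiHa at pH 6.5 replicate 4 stood apart for ATP5MC1, with 2541, and replicate 7 for ATP5PB, with 4850.

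The pH effect of 12 named members differed between HCT116 and SiHa in the limma test of the difference, each with HCT116 above. The differences in log2 were 1.56 for ATP5MC1, 1.48 for NDUFA3, 1.37 for NDUFC2, 0.89 for COX6B1 and for MT-ND1, 0.86 for NDUFB8, 0.84 for COX8A, 0.83 for NDUFS8 and for COX5B, 0.78 for NDUFB1, 0.71 for ATP5MC3 and 0.57 for NDUFV1. The call of NDUFV1 was made in 7 of the 21 fits that left out a library, and that of ATP5MC3 in 15.

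Of 91 pseudogenes with matching symbols, which no comparison used, 3 had a mean over 100 normalised counts over the 30 libraries, with 429 for UQCRFS1P1, 324 for COX6A1P2 and 166 for NDUFV2P1.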

How the results depend on the processing

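With all libraries as labelled, nuclear members higher at pH 6.5 numbered 13 in SiHa and 23 in FaDu, and those lower 2 in HCT116 and 5 in FaDu; mitochondrial members higher numbered 2 in SiHa and 0 in HCT116, and 17 members differed between HCT116 and SiHa. In HCT116, edgeR, DESeq2 and scaling by reads of nuclear genes called 20, 22 and 25 nuclear members higher, and 7, 6 and 7 mitochondrial ones. Over all genes in HCT116, edgeR called 11.0% higher and DESeq2 11.5%, and the scaling gave 2274 of 18885. NDUFA13, the nuclear call lower there, was lost in edgeR, without a filter, with a filter of 100, by reads of nuclear genes and under the replicate block (0 lower). In FaDu, DESeq2 called 4 nuclear and 4 mitochondrial members higher, and scaling by reads of nuclear genes 5 nuclear ones. In SiHa, no filter left 4 nuclear members higher, and 1 fit over 21 libraries left 2; both mitochondrial calls were lost (0) with a pseudocount of 10 and without a filter, the higher one also in 1 fit, and the lower one in edgeR. In HCT116 a filter of 100 and 1 fit over 21 libraries gave 2 and 3 mitochondrial members higher, and in FaDu 1 fit gave 3 of these and 2 nuclear members lower.

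Whether the replicate numbers pair the libraries was not settled. Same-numbered kept libraries correlated at 0.316, 0.0478 and 0.0790 in SiHa, each best with its own number. In HCT116 they correlated at 0.173 and 0.0553, where replicate 1 matched its own number best and replicate 3 matched number 7. In FaDu, with 1 kept library at pH 7.4, pairing could not be checked. With a replicate block, 11 nuclear members were lower in SiHa, 0 mitochondrial members were higher in SiHa and in HCT116, 2 members differed between HCT116 and SiHa, and 0 among the 3 lines. In FaDu the block could be fitted only with all libraries as labelled, and gave 32 nuclear members higher and 6 lower, and 1 mitochondrial member each way. The shares over all genes in these block fits are not given here, so the counts cannot be read as particular to the members.

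Leaving out 1 library at a time gave 2 to 7 nuclear members higher and 6 to 23 lower in SiHa, with 0 to 1 mitochondrial member each way. It gave 5 to 26 higher and 0 to 1 lower in HCT116, with 1 to 4 mitochondrial members higher, and 0 to 10 higher and 0 to 12 lower in FaDu, with 0 to 9 mitochondrial members higher. Between 8 and 35 members then differed between HCT116 and SiHa, and 18 to 42 among the 3 lines. These ranges are given without the share over all genes in each fit. The sign changed with all libraries as labelled in 21 of 82 nuclear and 13 of 13 mitochondrial members in HCT116, 24 of 81 and 11 of 13 in FaDu, and 3 of 82 and 2 of 13 in SiHa. Among named members called in either fit, these were MT-ND6 in HCT116 at -0.076 and, in FaDu, SDHC at 0.29 and NDUFB1 at 0.95, the same under the block; with the block in FaDu, MT-ATP8 stood at -0.42, COX6A1 at 0.34 and NDUFA6 at 0.40. The cause of these changes was not tested. Genes near the floor of 1.90 to 5.01 normalised counts could not be compared at this depth.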
